A study of Mus musculus with 15 samples.

Results

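This comparison set RNA recovered with a Dnmt1 antibody from heterozygous (Het) mouse tail fibroblasts against RNA recovered in the same way from wild type (WT) ones. Its 4 libraries, 2 Het and 2 WT, were chosen by the titles alone, out of 15 in the series and 6 of the Dnmt1 RNA immunoprecipitation (RIP), and all genes in the deposited tables were described. Het fibroblasts carry 1 copy of a dominant mutation in Dnmt1 and WT fibroblasts carry none. The labels do not name the allele, the sex or the age of the animals. Per the labels' protocols the lines came from tails of littermates of 1 sex, were grown in DMEM with 10% serum and were fixed in 1% formaldehyde before precipitation. The labels do not say that the 2 libraries of a genotype came from separate lines, animals or cultures, so the spread that p-values rest on may be only technical.

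Dnmt1 copies methylation marks onto newly made DNA strands, and it has also been described to bind RNA. An RNA immunoprecipitation recovers RNA crosslinked to a protein together with background RNA that sticks to the beads, and the level read for a gene depends on how much of its RNA the cell holds. Fibroblasts secrete and remodel connective tissue and respond to growth factors such as TGF-beta, PDGF and IGF. With no input library for each genotype, a difference in RNA bound cannot be told apart from a difference in RNA abundance, nor fewer cells of a type from less RNA per cell.

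The Het libraries held 814262 and 804887 counts in genes and the WT libraries 217173 and 463133. A single count was worth 1.23 and 1.24 CPM (the count of a gene scaled to the total of its library) in Het and 4.605 and 2.16 CPM in WT, so low levels are coarser in WT. Lars2, Gm42418, Gm26917 and Gm10800 together took 26.5% (95% exact binomial interval 26.4 to 26.6%) and 5.7% of the Het libraries and 11.04% and 25.4% (25.2 to 25.5%) of the WT libraries. Such intervals cover counting error only. Libraries did not sort cleanly by genotype. Across 13589 genes, Pearson's r of log2(CPM + 5) was 0.747 between the Het libraries and 0.671 between the WT libraries, and 0.648 to 0.772 between genotypes, highest for Het library 1 with WT library 2. By Spearman's rho the Het pair came first at 0.7425, with 0.7376 for Het library 1 and WT library 2. Het library 1 and WT library 2 were also the ones richest in the 4 genes named. Dnmt1 itself (chromosome 9, mm10, GENCODE M21) stood at 1506 and 2018 CPM in Het and 2427 and 2943 CPM in WT, a log2 fold change of -0.57 ± 0.82; the mutation does not remove the gene, so this does not check the genotypes.

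Of 20 fibroblast markers, 19 and 20 were read in Het and 17 and 19 in WT, with summed levels of 16662 and 8558 CPM in Het and 1073 and 2032 CPM in WT. These sums include matrix genes, with Col1a1 alone at 10487 and 3818 CPM in Het and 152 and 713 CPM in WT. The median log2 fold change of the 16 markers tested was 0.81, and 0.30 without Het library 2. Macrophage markers differed between the libraries of a genotype, and were highest in Het library 2 and next in WT library 2. Their summed level was 275 and 6195 CPM in Het and 281 and 1367 CPM in WT, and the complement gene C1qa stood at 20.9 and 624 CPM in Het and 9.21 and 112 CPM in WT. All 20 of these markers were read in both Het libraries and in WT library 2, while 9 of them, among them Lyz2, Laptm5 and Itgam, were at 0 in WT library 1. Lyz2, the lysozyme gene of macrophages, had 22.1 and 2715 CPM in Het and 0 and 693 CPM in WT. C1qa and Lyz2 were named outside the naming rules, so their contrasts do not stand for the whole list. Keratinocyte, endothelial and lymphocyte markers summed to at most 350 CPM in each library. Neuron markers summed to 4064 and 5167 CPM in Het and 7759 and 4690 CPM in WT, against 1023 CPM in the Het and 1582 and 1439 CPM in the WT fibroblast libraries precipitated with an antibody to 5-methylcytosine (m5C).

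The 15 genes named by smallest p on the higher side in the Het Dnmt1 RIP include a growth factor receptor, regulators of TGF-beta and Notch signalling, a subunit of myosin phosphatase and an endocytic collagen receptor. The 15 on the lower side are mixed, and include a cation channel gene, an olfactory receptor gene, a sialyltransferase gene of the nervous system and a kinase gene. No single gene passed the test. The quasi-likelihood test of edgeR with Benjamini-Hochberg adjustment called 0 of 13589 genes (percent called 0, smallest adjusted p 0.732 in that test). At an unadjusted p under 0.05 there were 868 genes (6.39%), 602 higher in Het (4.43%) and 266 lower (1.96%). Over all genes tested 7009 estimates (51.6%) were positive, and the median log2 fold change was 0.03. Both Het libraries lay above both WT libraries for 2075 genes (15.3%) and below them for 2122 (15.6%).

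DESeq2, the other tool, gave an adjusted p to 1997 of the 13589 genes and left the other 11592 without one. Of the 1997, 26 passed (1.3%), all higher in Het. Genes on the lower side were mostly without an adjusted p: 245 of the 266 at an unadjusted p under 0.05 in edgeR, and all 15 of those named, so the direction of these calls says little of the lower side. Of these, 12 belong to the extracellular matrix and immediate early lists and 14 do not. The 14 are Ahnak2, Dkk2, Mcl1, Neat1, Pmepa1, Itgb5, Myh9, Mrc2, Adam33, Gas6, Slit3, Ppp1r12c, Pkd2 and Flna, named because DESeq2 called them. Their DESeq2 adjusted p ran from 0.00149 for Ahnak2 to 0.0492 for Flna.

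**Figure D1:**
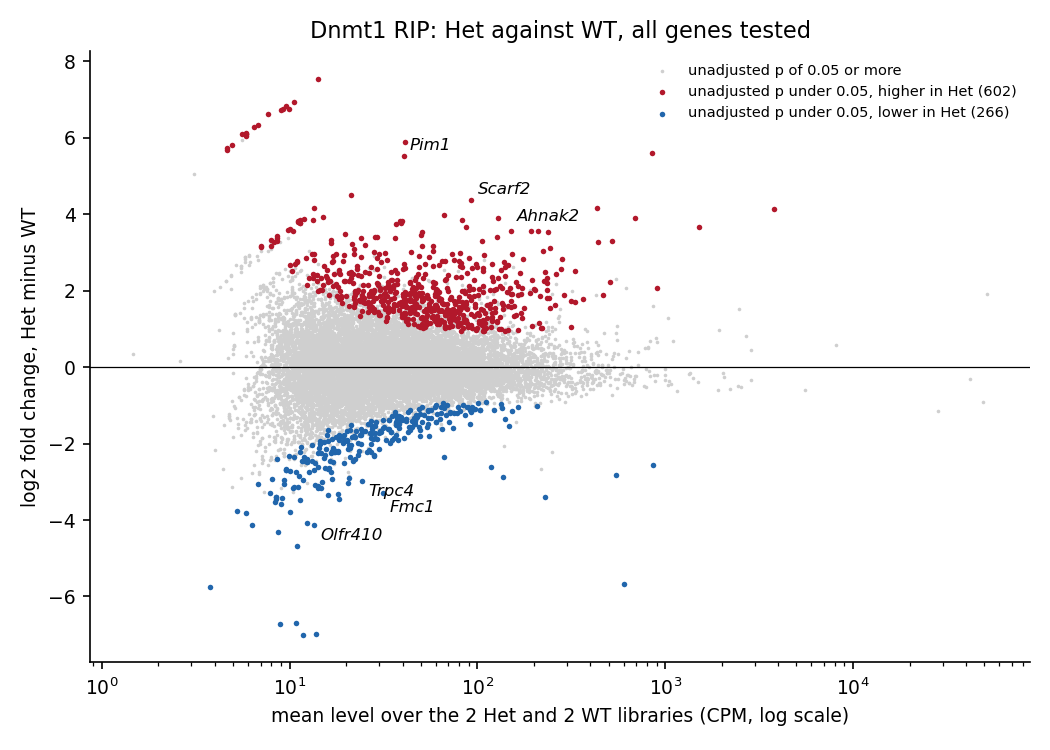
Log2 fold change, Het minus WT, against the mean level over the 2 Het and 2 WT libraries in CPM on a log scale, 1 point per gene tested. Red points are the 602 genes higher in Het and blue points the 266 lower in Het at an unadjusted p under 0.05; none passed after adjustment, and points in straight rows at the upper and lower left are genes with 0 counts in a genotype.

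The 15 genes with the smallest p on the higher side, outside matrix and immediate early genes, all had groups that did not overlap, which the naming rule required. Several encode membrane proteins of fibroblasts. Pdgfrb (chromosome 18, 61045150 to 61085061, plus strand), the PDGF receptor of mesenchymal cells, had 111 and 111 CPM in Het and 27.6 and 21.6 CPM in WT, and both Het libraries were alike. Its log2 fold change was 2.27 ± 0.49 (SE, as for all fold changes here). Mrc2 (chromosome 11, 105292643 to 105351139, plus strand), an endocytic receptor that takes up collagen, had 200.2 and 231 CPM in Het and 36.8 and 49.7 CPM in WT (2.33 ± 0.53). The scavenger receptor gene Scarf2 had 285 and 70.8 CPM in Het and 0 and 15.1 CPM in WT (4.36 ± 1.02) and was highest in Het library 1. Ssc5d, which encodes a secreted scavenger receptor domain protein, had 97.02 and 107 CPM in Het and 4.605 and 23.8 CPM in WT (2.64 ± 0.64). Slc39a13, a zinc transporter gene of the secretory pathway, had 55.3 and 101 CPM in Het and 13.8 and 17.3 CPM in WT (2.26 ± 0.54).

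Regulators of signalling formed another part of the 15. Pmepa1 (chromosome 2, 173224458 to 173276533, minus strand), a TGF-beta target whose product restrains TGF-beta signalling, had 266 and 201 CPM in Het and 46.05 and 49.7 CPM in WT (2.39 ± 0.54), with close agreement in each genotype. Hes1 (chromosome 16, 30064384 to 30067796, plus strand), the Notch target that encodes a transcriptional repressor, had 93.3 and 90.7 CPM in Het and 4.605 and 10.8 CPM in WT (3.45 ± 0.73). The serine kinase gene Pim1 (chromosome 17, 29490753 to 29496112, plus strand) had 33.2 and 127 CPM in Het and 0 and 2.16 CPM in WT. This rests on 1 count in WT: the ratio of pooled counts, Het over WT, was 54.2 with a 95% counting interval from 9.56 to 2157, and the fitted log2 fold change was 5.52 ± 1.03. Tnfaip2, a gene induced by tumour necrosis factor, had 114 and 163 CPM in Het and 27.6 and 19.4 CPM in WT (2.64 ± 0.50). Pnrc1, a nuclear receptor coactivator gene, had 73.7 and 124 CPM in Het and 18.4 and 28.1 CPM in WT (2.01 ± 0.48).

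The rest of the 15 are tied to the cytoskeleton, vesicles or nucleotide sugars, or have no settled role. Ahnak2 (chromosome 12, 112772194 to 112802657, minus strand), a gene for a very large scaffold protein, had 422 and 125 CPM in Het and 27.6 and 25.9 CPM in WT (3.57 ± 0.73), and Het library 1 was the higher one. Ppp1r12c (chromosome 7, 4481520 to 4501680, minus strand), which encodes a subunit of myosin phosphatase, had 235 and 196 CPM in Het and 59.9 and 51.8 CPM in WT (2.07 ± 0.46). Vat1, a gene first described in synaptic vesicles, had 149 and 140.4 CPM in Het and 32.2 and 41.02 CPM in WT (2.02 ± 0.48). Uap1l1, related to an enzyme that makes UDP-N-acetylglucosamine, had 49.1 and 122 CPM in Het and 18.4 and 15.1 CPM in WT (2.34 ± 0.54). Ccdc9, a component of messenger RNA complexes, had 71.2 and 128 CPM in Het and 27.6 and 23.8 CPM in WT (1.97 ± 0.45). The 15 kept a positive estimate in each of the 16 alternative settings. The naming rule required groups that do not overlap, so this sign was largely fixed in advance.

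On the lower side the 15 genes had low counts in Het, and their groups again did not overlap by the naming rule. Trpc4 (chromosome 3, 54156035 to 54318471, plus strand), a cation channel gene, had 4.91 and 4.97 CPM in Het and 55.3 and 32.4 CPM in WT (-2.97 ± 0.70). St8sia3 (chromosome 18, 64254359 to 64279611, plus strand), a sialyltransferase gene of the nervous system, had 18.4 and 24.8 CPM in Het and 73.7 and 82.05 CPM in WT (-1.81 ± 0.48), with both genotypes tight. Prkg1, the cGMP-dependent kinase gene, had 15.97 and 13.7 CPM in Het and 55.3 and 58.3 CPM in WT (-1.85 ± 0.55). Gtdc1, a glycosyltransferase-like gene, had 14.7 and 11.2 CPM in Het and 59.9 and 51.8 CPM in WT (-1.99 ± 0.53). Cnot3 (chromosome 7, 3645268 to 3661109, plus strand), a subunit of the complex that removes poly(A) tails, was the most abundant of them, with 24.6 and 34.8 CPM in Het and 134 and 66.9 CPM in WT (-1.62 ± 0.44). Dnah5, a dynein heavy chain gene of motile cilia, had 15.97 and 24.8 CPM in Het and 73.7 and 60.5 CPM in WT (-1.65 ± 0.46). Cdkl3, a kinase gene, had 6.14 and 14.9 CPM in Het and 59.9 and 38.9 CPM in WT (-2.15 ± 0.64).

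Other members of the lower set rest on very few counts in Het. The filter on low counts is a level, which fewer counts reach in the shallower WT libraries. At least Olfr410, Ovol1 and AC125371.3 passed it through their WT values alone. In the homozygous libraries they stood at 6.8 and 9.54, 3.89 and 7.34, and 3.89 and 0.734 CPM. Their lower reading in Het was thus largely fixed by the filter as well as by the naming rule. Fmc1, a mitochondrial assembly factor gene that overlaps its neighbour in the annotation, had 3.68 and 6.21 CPM in Het and 92.1 and 23.8 CPM in WT (-3.303 ± 0.84). Magel2, an imprinted gene of the brain, had 2.46 and 6.21 CPM in Het and 36.8 and 36.7 CPM in WT (-3.03 ± 0.78). Fam160a1 had 2.46 and 3.73 CPM in Het and 27.6 and 25.9 CPM in WT (-3.004 ± 0.87). Ovol1, a transcription factor gene of epithelia, had 0 and 1.24 CPM in Het and 27.6 and 15.1 CPM in WT, a ratio of pooled counts of 0.0323 (0.000761 to 0.215). Prrg1 had 1.23 and 2.48 CPM in Het and 13.8 and 28.1 CPM in WT, a ratio of 0.0788 (0.0147 to 0.275), and the olfactory receptor gene Olfr410 had 1.23 and 1.24 CPM in Het and 27.6 and 23.8 CPM in WT, a ratio of 0.0494 (0.00554 to 0.208). Cpb2, a carboxypeptidase gene of liver, was at 0 in both Het libraries and at 36.8 and 6.48 CPM in WT, at least 5.84-fold lower against a floor of 3 counts per library. AC125371.3, a locus with no coordinates in the annotation used, was at 0 in both Het libraries and at 27.6 and 19.4 CPM in WT, at least 6.35-fold lower. The 15 kept a negative estimate in each of the 14 to 16 settings in which they were tested, a sign that the naming rule had again largely fixed.

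**Figure D2:**
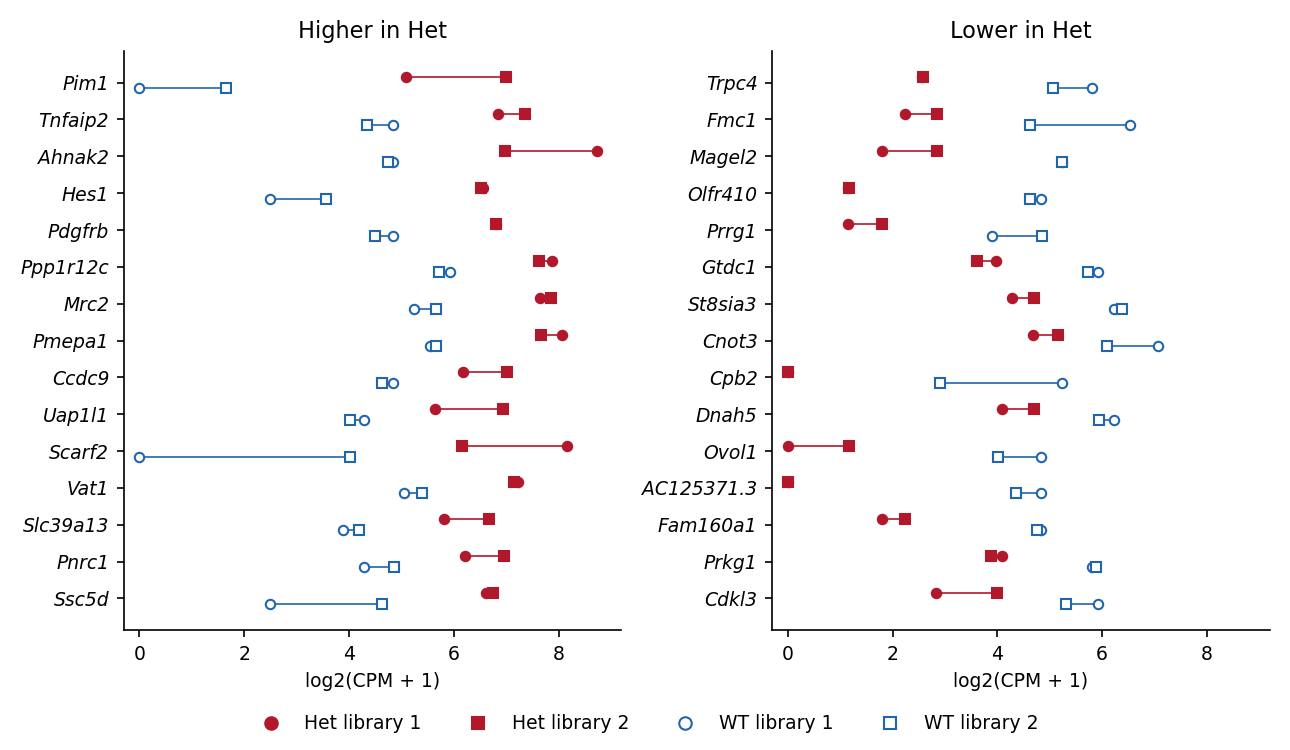
Levels of the 15 genes with the smallest p per direction, as log2(CPM + 1), in Het libraries (red, filled) and WT libraries (blue, open); circles are library 1 and squares library 2, and the line joins the 2 libraries of a genotype. The groups do not overlap because the rule that named these genes required it; Pim1 and Scarf2 reach 0 in WT library 1, and Cpb2 and AC125371.3 are at 0 in both Het libraries.

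The direction of a gene in the Dnmt1 RIP went with its level in an m5C RIP library of WT fibroblasts (WT library 2 of that assay), which is an enriched fraction and not total messenger RNA. The 15 named higher genes stood between 71.7 and 386 CPM there, with a median of 142 CPM, and the 15 named lower genes between 0 and 28.5 CPM, with a median of 6.52 CPM. The median was 93.3 CPM for the 602 genes on the higher side, 7.34 CPM for the 266 on the lower side and 25.3 CPM for all genes tested. The series also holds 1 fibroblast input library with 228852 counts, 58.4% of them in the 4 dominant genes, in which most genes had no reads. There 7 of the 15 named higher genes and 5 of the 15 named lower genes had reads, as had 53.5% of the 602 genes, 31.95% of the 266 and 40.1% of all genes tested. By quintiles of the m5C level, lowest to highest, the median log2 fold change was -0.39, -0.14, -0.005, 0.13 and 0.37. Genes at an unadjusted p under 0.05 made up 0.883%, 1.66%, 2.47%, 4.42% and 12.7% on the higher side and 4.60%, 2.65%, 1.55%, 0.809% and 0.184% on the lower side. The lowest quintile stayed below 0 (-0.52 to -0.14) and the highest above 0 (0.19 to 0.60) in the 16 alternative settings. The quintiles were limited in each setting to genes that passed the main filter on low counts. These settings therefore do not test that filter, which a rare gene passes with fewer counts in the WT libraries. The end nearest 0 came without WT library 2 for the lowest quintile and without Het library 2 for the highest.

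Across the same genes, log2(CPM + 5) in the Het Dnmt1 RIP correlated with that m5C library at 0.638 and 0.814, and in the WT Dnmt1 RIP at 0.470 and 0.590. These are correlations across genes, which are not independent replicates, and the libraries differ in depth in the same order of genotypes. The highest quintile held 46.6% and 50.4% of the counts of the Het libraries and 39.9% and 43.7% of those of the WT libraries when the 4 dominant genes were left out. With these genes kept it held 60.7% and 53.2% in Het and 46.6% and 58.0% in WT, and the genotypes overlapped. By quintiles of the mean level in the Dnmt1 RIP itself, lowest to highest, the medians were -0.03, -0.002, 0.06, 0.08 and -0.01. The share of genes on the higher side there was 2.15%, 2.67%, 3.56%, 6.05% and 7.76%, and that on the lower side 2.30%, 2.26%, 2.004%, 1.93% and 1.26%. The first rose with the level and the second fell, while the medians had no trend. How far depth or background reads take part in the pattern was not tested.

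Transcript composition varied with direction too. By quintiles of GC content, lowest to highest, the median log2 fold change was -0.12, -0.05, 0.04, 0.08 and 0.24, and the share of genes on the higher side was 1.78%, 2.67%, 3.97%, 5.20% and 8.57%. The 15 named higher genes had a median GC content of 57.3% and the 15 lower ones 45.8%, against 49.7% for all genes tested. A fit with a GC correction for each library had 813 genes at an unadjusted p under 0.05, 528 higher and 285 lower. Of the 602 higher genes without the correction, 508 were among them in the same direction, and of the 266 lower ones 231. Gene span ran the other way, with medians of 0.15, 0.07, 0.04, 0.03 and -0.11 in quintiles of rising span. Long intergenic noncoding RNAs had a median of -0.41 over 240 genes and antisense genes -0.29 over 105, against 0.03 for 13118 protein-coding genes. The counting may or may not have used strand (not given in the sources used here), so reads of antisense genes cannot be told from those of their partners.

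**Figure D3:**
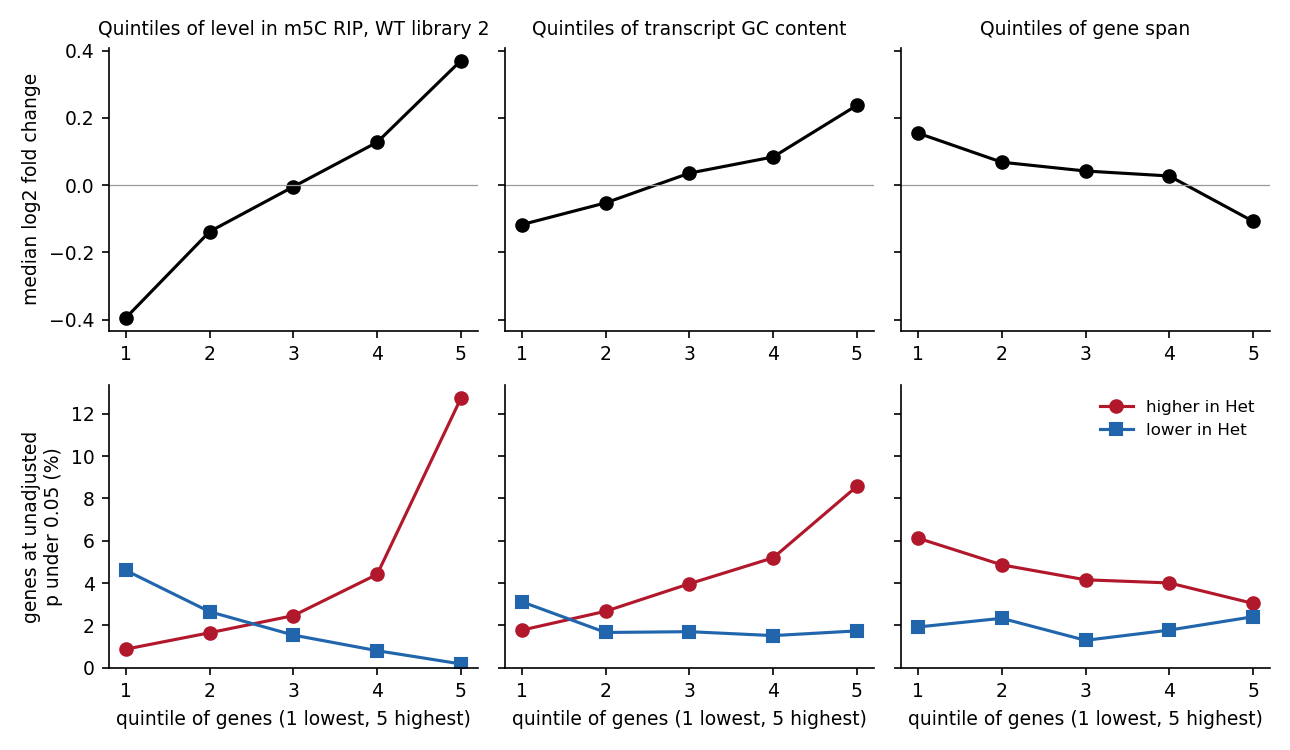
Genes tested, in quintiles of their level in an m5C RIP library of WT fibroblasts (left), of transcript GC content (middle) and of gene span (right). The upper row gives the median log2 fold change, Het minus WT, from -0.39 to 0.37 along the m5C level, and the lower row the percentage of genes at an unadjusted p under 0.05 that were higher (red) or lower (blue) in Het, with 12.7% higher in the top quintile of m5C level.

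Gene lists were read against the background of 51.6% positive estimates, 4.43% of genes on the higher side and 1.96% on the lower side at an unadjusted p under 0.05; each list is described by its counts and median, and no list as such was tested. Growth factor and cytokine pathways came first. TGF-beta and BMP pathway genes had positive estimates for 29 of 42 members, 9 on the higher side and 0 on the lower, with the list median at 0.54 (range 0.23 to 1.07 in the settings run). Their summed level was 3409 and 3774 CPM in Het and 1810 and 1866 CPM in WT, so the genotypes did not overlap. The co-receptor gene Tgfbr3 had 71.2 and 72.1 CPM in Het and 13.8 and 17.3 CPM in WT (2.21 ± 0.54), and the ligand gene Tgfb1 had 81.1 and 121 CPM in Het and 64.5 and 23.8 CPM in WT (1.37 ± 0.48). Among the targets, Id1 and Id3, which encode inhibitors of helix-loop-helix factors, had 162 and 45.97 CPM in Het and 32.2 and 10.8 CPM in WT (2.67 ± 0.82) and 94.6 and 121 CPM in Het and 41.4 and 43.2 CPM in WT (1.38 ± 0.43).

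The IGF axis had positive estimates for 15 of 18 members, 3 on the higher side, a median of 0.56 (0.26 to 0.78) and a summed level of 1761 and 1967 CPM in Het and 1077 and 946 CPM in WT. Igfbp3, which carries IGF in the circulation, had 296 and 176 CPM in Het and 0 and 38.9 CPM in WT (3.41 ± 0.93), and Igfbp4, another binding protein gene, had 307 and 603 CPM in Het and 9.21 and 136 CPM in WT (2.44 ± 0.89). FGF, PDGF and EGF family genes pointed both ways, with 19 of 36 positive, 7 on the higher and 2 on the lower side and a median of 0.02 (-0.24 to 0.26). Gas6, ligand of the Axl receptor family, had 333 and 575 CPM in Het and 111 and 134 CPM in WT (1.89 ± 0.46), and Vegfb had 51.6 and 53.4 CPM in Het and 9.21 and 15.1 CPM in WT (2.06 ± 0.62). The neuregulin gene Nrg1 was on the other side, with 12.3 and 17.4 CPM in Het and 73.7 and 34.5 CPM in WT (-1.71 ± 0.55).

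Wnt pathway genes had positive estimates for 24 of 38 members, with the median at 0.32 (0.17 to 0.78) and 3 on the higher and 1 on the lower side. The secreted Wnt inhibitor gene Dkk2 (chromosome 3, 132085292 to 132180304, plus strand) had 266 and 349 CPM in Het and 36.8 and 49.7 CPM in WT (2.83 ± 0.71), and the ligand gene Wnt5a had 47.9 and 27.3 CPM in Het and 9.21 and 12.96 CPM in WT (1.803 ± 0.72). Notch pathway genes had 19 of 27 positive, with Hes1 alone on the higher side. Semaphorins, ephrins and their receptors had 25 of 52 positive, 0 on the higher and 2 on the lower side. Efnb3, an ephrin gene, had 35.6 and 48.5 CPM in Het and 111 and 90.7 CPM in WT (-1.18 ± 0.40).

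Cytokine and chemokine genes had 10 of 14 tested members positive, 4 on the higher side and a median of 0.92 (0.20 without Het library 2). Cxcl12, a chemokine gene of stromal cells, had 94.6 and 128 CPM in Het and 41.4 and 25.9 CPM in WT (1.84 ± 0.46), and Csf1, which encodes the macrophage growth factor, had 147 and 198 CPM in Het and 23.02 and 60.5 CPM in WT (1.95 ± 0.54). Cxcl2 had 2.46 and 190.1 CPM in Het and 0 and 10.8 CPM in WT; its groups overlapped, and its estimate of 3.54 turned to -1.07 without Het library 2. Among NF-kB targets 15 of 20 were positive, 4 on the higher and 1 on the lower side, with a median of 0.77 (0.10 without Het library 2). Nfkbiz, an inhibitor family member, had 40.5 and 89.5 CPM in Het and 27.6 and 10.8 CPM in WT (1.90 ± 0.62) and the subunit gene Rela had 51.6 and 67.1 CPM in Het and 36.8 and 10.8 CPM in WT (1.56 ± 0.57). The lower one was Nfkb1, with 187 and 80.8 CPM in Het and 69.1 and 1861 CPM in WT, a value set by WT library 2 alone: without it the estimate was 1.41.

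Actin-based contractile genes, which fibroblasts use to pull on their surroundings, had positive estimates for 32 of 36 members, 8 on the higher and 0 on the lower side and a median of 0.82 (0.44 to 1.59), and summed to 4160 and 6082 CPM in Het and 2652 and 3260 CPM in WT. The filamin genes Flna and Flnc, whose products crosslink actin, had 249 and 391 CPM in Het and 96.7 and 69.1 CPM in WT (2.02 ± 0.49) and 158 and 128 CPM in Het and 59.9 and 56.1 CPM in WT (1.42 ± 0.45). Myh9, the nonmuscle myosin heavy chain gene, had 854 and 235 CPM in Het and 119.7 and 108 CPM in WT (2.50 ± 0.71), and Pdlim7 had 60.2 and 137 CPM in Het and 32.2 and 41.02 CPM in WT (1.36 ± 0.47). Tubulins and kinesins, the microtubule side of the cytoskeleton, had 13 of 49 positive, 0 genes on either side and a median of -0.22 (-0.34 to -0.09).

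Integrins, the receptors that hold cells to matrix, had 10 of 24 positive and a median of -0.14, yet 3 genes on the higher side. The median had no stable sign (-0.25 to 0.24 in the settings run) and was positive without Het library 2 and without either WT library. Itgb5 had 306 and 134 CPM in Het and 64.5 and 28.1 CPM in WT (2.55 ± 0.62), Itgb1 had 337 and 178 CPM in Het and 36.8 and 106 CPM in WT (1.89 ± 0.65) and Itga5, which pairs with Itgb1 as fibronectin receptor, had 67.5 and 169 CPM in Het and 0 and 36.7 CPM in WT (2.31 ± 0.80). Matrix metalloproteinases, ADAMs and their inhibitors had 27 of 45 tested members positive, 9 on the higher and 3 on the lower side. The gelatinase gene Mmp2 had 82.3 and 109 CPM in Het and 27.6 and 25.9 CPM in WT (1.88 ± 0.47) and its inhibitor gene Timp2 had 447 and 553 CPM in Het and 198 and 132 CPM in WT (1.71 ± 0.45). Adam33 had 184 and 207 CPM in Het and 0 and 43.2 CPM in WT (2.92 ± 0.84).

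Genes of the secretory pathway had mostly positive estimates. Endoplasmic reticulum folding and unfolded protein response genes had 33 of 39 positive, 5 on the higher side and 0 on the lower, and a median of 0.40 (0.37 to 0.69). Their summed level was 2532 and 5117 CPM in Het and 2929 and 2362 CPM in WT, so Het library 1 lay between the WT libraries. Serpinh1, the collagen chaperone gene, had 177 and 365 CPM in Het and 55.3 and 82.05 CPM in WT (1.92 ± 0.55). The transcription factor genes Xbp1 and Ddit3 had 45.4 and 101 CPM in Het and 13.8 and 28.1 CPM in WT (1.65 ± 0.57) and 33.2 and 79.5 CPM in Het and 4.605 and 17.3 CPM in WT (2.104 ± 0.72). Golgi and coat protein genes had 31 of 41 positive and a median of 0.23, which was 0.04 without Het library 2. They summed to 2069 and 3738 CPM in Het and 2514 and 2099 CPM in WT, with Het library 1 below both WT libraries, and the list holds the proprotein convertase gene Furin at 192 and 95.7 CPM in Het and 36.8 and 36.7 CPM in WT (2.12 ± 0.57). Lysosome and autophagy genes had 44 of 51 positive, 7 on the higher side and a median of 0.51 (0.23 without Het library 2), but their summed level was 3160 and 10560 CPM in Het and 3900 and 3686 CPM in WT. Only Het library 2, which also had the highest summed level of macrophage markers, stood above the WT libraries. The part of macrophage reads was not tested. Lamp2, a lysosomal membrane gene, had 73.7 and 149 CPM in Het and 46.05 and 53.98 CPM in WT (1.12 ± 0.44).

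In metabolism the lists were mixed. Cholesterol genes had positive estimates for 19 of 32 members with 1 on the higher side. Glycolysis genes had 11 of 26 positive. Here Hk2 and Hk1, genes for 2 hexokinases, stood on opposite sides, Hk2 with 42.98 and 140.4 CPM in Het and 41.4 and 25.9 CPM in WT (1.46 ± 0.54) and Hk1 with 107 and 150.3 CPM in Het and 409.8 and 166 CPM in WT (-1.02 ± 0.45). Nuclear-encoded respiratory chain genes had 55 of 75 positive and a median of 0.29, which was -0.05 without Het library 2. Of 12 mitochondrially encoded genes tested, 1 was positive, and their median was -0.23 (0.01 without Het library 2).

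Stress and growth control lists were read next. The p53 targets had positive estimates for 19 of 26 members, 5 on the higher and 1 on the lower side and a median of 0.21 (0.20 to 0.82). Cdkn1a, the cell cycle inhibitor gene, had 62.6 and 174 CPM in Het and 55.3 and 28.1 CPM in WT, Sesn2 49.1 and 44.7 CPM in Het and 18.4 and 6.48 CPM in WT (2.18 ± 0.69) and Plk3 51.6 and 82.0 CPM in Het and 32.2 and 8.64 CPM in WT (1.95 ± 0.65). Oxidative stress genes had 22 of 27 positive and 2 on the higher side, Gpx1 and Gpx4, both glutathione peroxidase genes, and their median of 0.65 was 0.20 without Het library 2. They summed to 1455 and 7674 CPM in Het and 2104 and 2960 CPM in WT, with Het library 1 below both WT libraries. Gpx4 had 67.5 and 231 CPM in Het and 46.05 and 62.6 CPM in WT (1.35 ± 0.58). Hypoxia genes had 12 of 20 positive, with Vegfa at 154 and 80.8 CPM in Het and 64.5 and 49.7 CPM in WT (1.23 ± 0.54) and Vhl, which controls the turnover of those factors, at 17.2 and 34.8 CPM in Het and 101 and 49.7 CPM in WT (-1.43 ± 0.53). Heat shock chaperones had 15 of 28 positive and 0 genes on either side. Cell cycle and DNA replication genes had 32 of 51 positive, 2 on each side: Ccnd1, the cyclin D1 gene, had 62.6 and 41.0 CPM in Het and 9.21 and 21.6 CPM in WT (1.71 ± 0.73), and E2f8 had 2.46 and 7.45 CPM in Het and 23.02 and 19.4 CPM in WT (-2.05 ± 0.87).

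Lists closest to the known work of Dnmt1 had counts near the background. DNA methylation machinery had positive estimates for 8 of 22 members, 0 on the higher and 1 on the lower side and a median of -0.09. The one on the lower side was Uhrf1, whose product brings Dnmt1 to newly copied DNA, with 14.7 and 24.8 CPM in Het and 115 and 23.8 CPM in WT; the groups overlapped and WT library 1 alone was high. RNA m5C enzymes and readers had 5 of 14 positive and 0 genes on either side. Imprinted genes had 20 of 45 positive, with Gnas, the gene of a G protein subunit, at 161 and 145 CPM in Het and 82.9 and 41.02 CPM in WT (1.498 ± 0.49) and Magel2 on the lower side. Germline genes had 10 of 20 positive and 0 on either side. Histone methyltransferases and demethylases had 30 of 51 positive, with Kdm4c at 17.2 and 27.3 CPM in Het and 106 and 47.5 CPM in WT (-1.64 ± 0.53) and Ehmt2 at 166 and 261 CPM in Het and 134 and 97.2 CPM in WT (0.96 ± 0.41). Zinc finger genes named Zfp had 134 of 245 positive and 7 on each side, and Hox genes had 10 of 27 positive and 1 on the higher side. The median of each of these lists crossed 0 over the settings run: -0.19 to 0.07 for DNA methylation machinery, -0.40 to 0.69 for RNA m5C enzymes, -0.19 to 0.13 for imprinted genes, -0.21 to 0.48 for germline genes, -0.11 to 0.38 for histone enzymes, -0.09 to 0.22 for Zfp genes and -1.07 to 1.07 for Hox genes.

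Of the RNA-binding and translation lists, cytosolic ribosomal protein genes showed how far 1 library can carry a median. They had positive estimates for 69 of 80 members, 0 genes on either side and a median of 0.37, which was -0.83 without Het library 2 and 1.06 without WT library 2. Their summed level was 7130 and 35186 CPM in Het and 11507 and 17740 CPM in WT, and both WT libraries lay between the Het libraries. Mitochondrial ribosomal protein genes had 49 of 71 positive, 4 on the higher side and a median of 0.42 (-0.05 without Het library 2). Translation factors had 25 of 58 positive with 2 on the higher side, among them Eif3b with 106 and 178 CPM in Het and 50.7 and 73.4 CPM in WT (1.15 ± 0.44). Splicing regulators of the Hnrnp and Srsf families had 14 of 42 positive and a median of -0.17, which was 0.64 without WT library 2. Nuclear long noncoding RNAs had 11 of 14 positive, and Neat1 (chromosome 19, 5824708 to 5845478, minus strand), the scaffold RNA of paraspeckles, had 311 and 1378 CPM in Het and 179.6 and 162 CPM in WT (2.23 ± 0.60). Malat1, another nuclear RNA, had 7630 and 11274 CPM in Het and 9320 and 4435 CPM in WT (0.58 ± 0.85), with overlapping groups.

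Immune lists moved with Het library 2. Interferon response genes had 28 of 39 tested members positive, 7 on the higher side and a median of 0.80, which was -0.05 without Het library 2, and summed to 615 and 1758 CPM in Het and 847 and 611 CPM in WT. Irf1, a transcription factor gene of the response, had 22.1 and 82.0 CPM in Het and 13.8 and 2.16 CPM in WT (2.95 ± 0.86). MHC class I and antigen presentation genes had 18 of 21 positive, 3 on the higher side and a median of 0.67 (0.06 without Het library 2), with H2-K1 at 39.3 and 269.6 CPM in Het and 36.8 and 32.4 CPM in WT (2.05 ± 0.69). Macrophage markers had 15 of 18 tested members positive and 0 on either side, and their median of 1.61 was -0.97 without Het library 2 and 3.77 without WT library 2. The growth factor receptor gene Csf1r had 33.2 and 328 CPM in Het and 46.05 and 45.3 CPM in WT, so Het library 1 lay below both WT libraries. Whether macrophage reads take part in the interferon and MHC values was not tested.

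**Figure D4:**
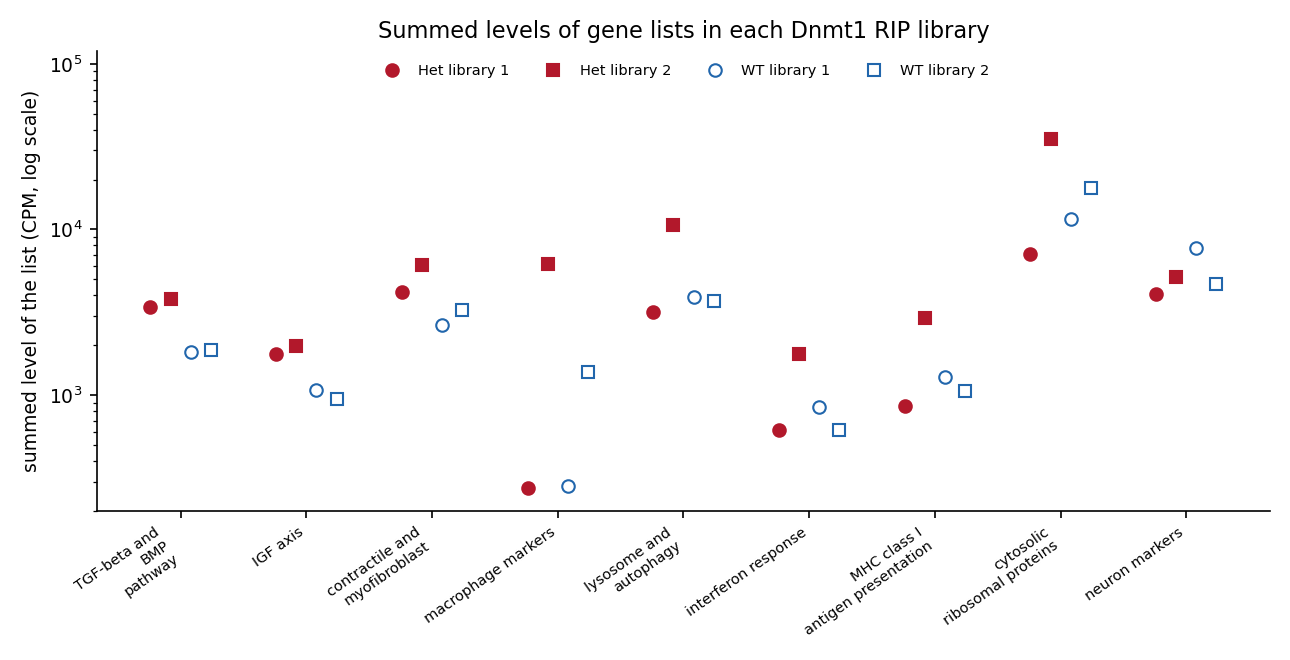
Summed level of 9 gene lists in each library, in CPM on a log scale, with Het libraries (red, filled) left of WT libraries (blue, open); circles are library 1 and squares library 2. TGF-beta and BMP, IGF and contractile genes are higher in both Het libraries than in both WT libraries, while macrophage, lysosome, interferon and MHC genes are high in Het library 2 and ribosomal protein genes are highest in Het library 2 and lowest in Het library 1.

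Lists of genes with little role in fibroblasts had mostly negative estimates. Olfactory receptors, the odour sensors of the nose, had 56 of 79 tested members negative, 13 on the lower and 1 on the higher side and a median of -0.93 (-1.58 to -0.72). Of the 1092 in the tables, 779 and 880 had reads in the Het libraries and 459 and 741 in the WT libraries, and 37 had none in the 4. Vomeronasal receptors, which sense pheromones, had 24 of 33 tested members negative and a median of -0.76. Clustered protocadherins, which give neurons their surface identity, had 23 of 28 negative and a median of -0.72 (-0.78 to -0.47). The filter on low counts kept a small share of the members of these receptor families, so the counts do not speak for all members. Its cutoff is a level, which fewer counts reach in the shallower WT libraries. There 3 counts were 13.8 and 6.48 CPM, against 3.68 and 3.73 CPM in the Het libraries. A member with few counts could thus enter through its WT values and then read lower in Het. How far this shapes the negative medians, also that of protocadherins, was not tested.

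Neuronal lists gave smaller values of the same sign. Neuron markers had negative estimates for 22 of 25 members, with the median at -0.32 (-0.44 to -0.13) and 0 genes on either side. Synaptic adhesion genes had 34 of 42 negative and a median of -0.32 (-0.11 without Het library 2). The adhesion gene Lrrtm2 had 17.2 and 24.8 CPM in Het and 64.5 and 45.3 CPM in WT (-1.29 ± 0.50). Glutamate and GABA receptor genes had 30 of 36 negative, with a median of -0.38 (-0.17 without Het library 2) and 0 genes on either side, and summed to 2273 and 2752 CPM in Het and 4070 and 2658 CPM in WT, so the genotypes overlapped. Voltage-gated and potassium channel genes had 64 of 90 negative, 4 on the lower and 1 on the higher side. Cacna1d, a calcium channel gene, had 46.7 and 49.7 CPM in Het and 138 and 110.1 CPM in WT (-1.26 ± 0.41), Kcnj11 had 9.82 and 11.2 CPM in Het and 32.2 and 41.02 CPM in WT (-1.77 ± 0.62) and Kcnd3 had 40.5 and 41.0 CPM in Het and 92.1 and 90.7 CPM in WT (-1.08 ± 0.42). The one on the higher side, Kcnk5, was at 23.3 and 7.45 CPM in Het and at 0 in both WT libraries, at least 1.52-fold higher against 3 counts per library. Skeletal muscle markers had 13 of 16 negative and a median of -0.61 (-1.07 to -0.20). Summed levels of neuronal lists were highest in WT library 1, the library of lowest depth.

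**Figure D5:**
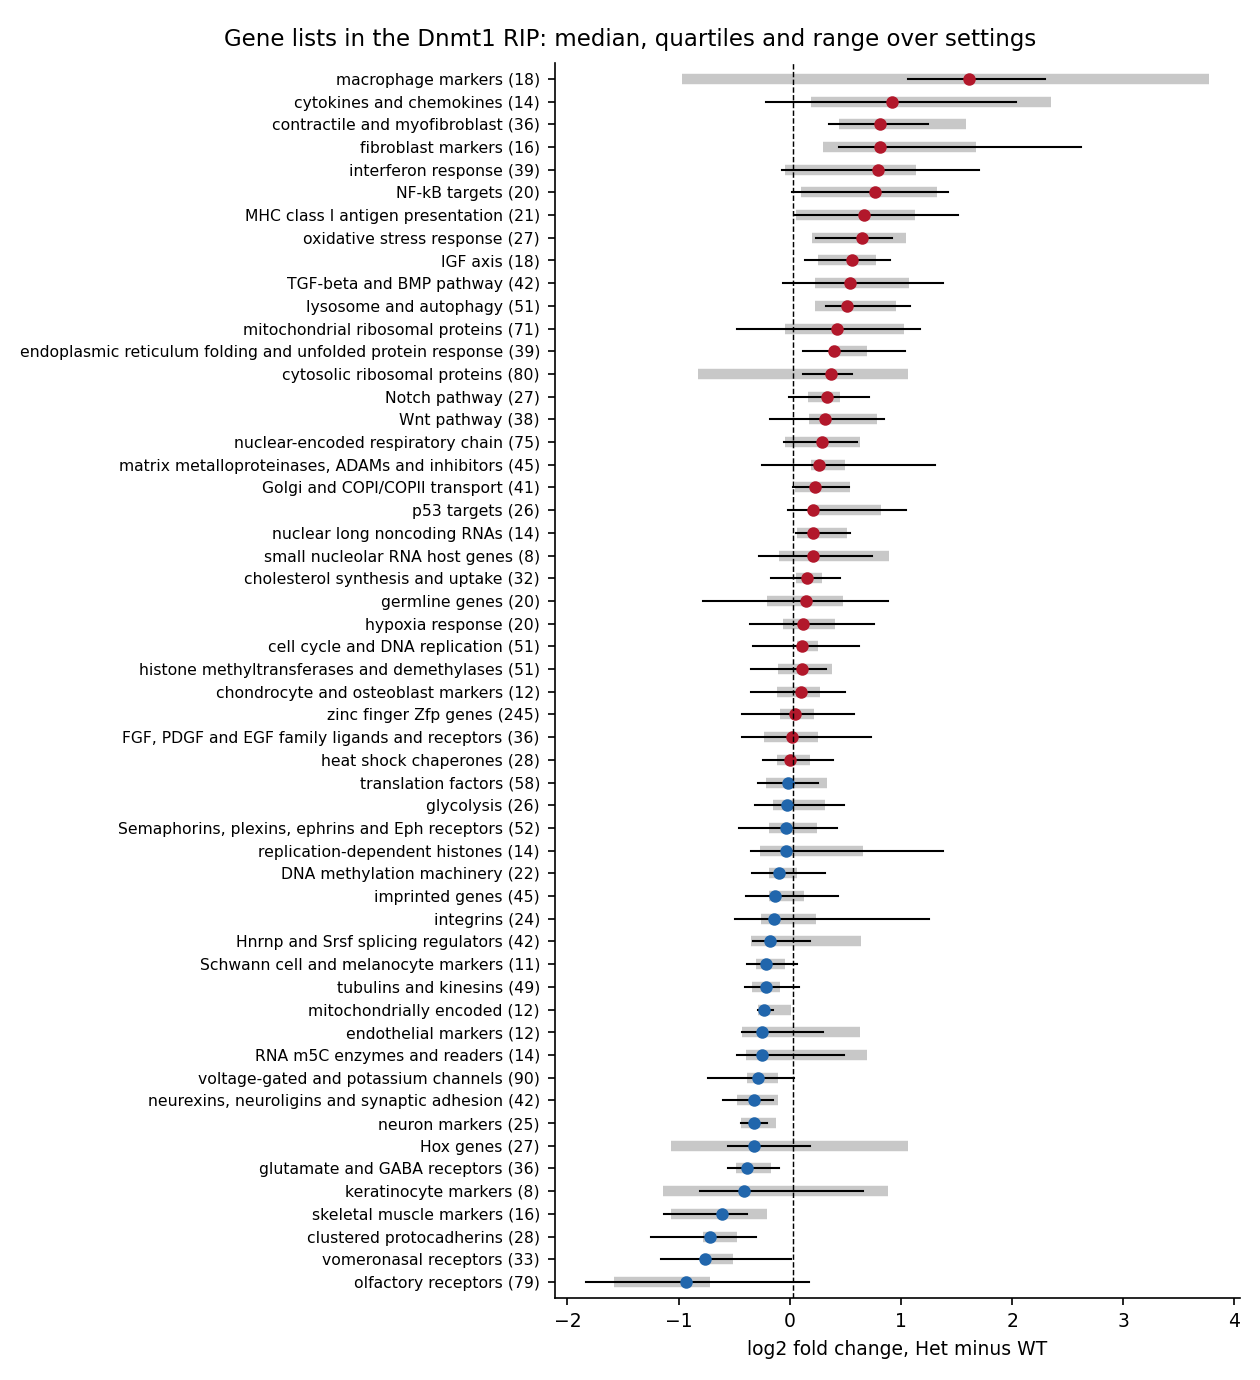
Median log2 fold change, Het minus WT, of each gene list with at least 8 members tested (number in brackets); points are medians, thin lines the quartiles over members, grey bars the range of the median over the settings run, and the dashed line the median of all genes (0.03). Contractile, TGF-beta and BMP, and endoplasmic reticulum lists stay above 0 in every setting shown and olfactory receptors and protocadherins below 0, while macrophage markers and ribosomal proteins cross 0. In every setting the members are limited to those that passed the main filter.

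Some large values came from 1 library, and these genes were picked after their values were seen. The protease gene Htra1 had 3237 and 87.0 CPM in Het and 41.4 and 43.2 CPM in WT. Rnf6, a ubiquitin ligase gene, had 1604 and 17.4 CPM in Het and 69.1 and 47.5 CPM in WT. Bptf, a chromatin remodelling gene, had 254 and 267 CPM in Het and 129 and 2790 CPM in WT. Gm43625 had 6592 and 0 CPM in Het and 0 and 4193 CPM in WT. The high values of Htra1 and Rnf6 fell in Het library 1, that of Bptf in WT library 2 and those of Gm43625 in both.

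Whether the Het difference was the same in the m5C RIP of fibroblasts, which has 1 Het and 2 WT libraries, was asked with a test of the difference between the assays. The edgeR quasi-likelihood test of that interaction called 0 of 17124 genes (percent called 0), DESeq2 also called 0, and 573 genes (3.35%) had an unadjusted p under 0.05. All 15 named higher genes and 9 of the 15 lower ones were among these, with a larger difference in the Dnmt1 RIP; since the Dnmt1 RIP values chose them, this is a description. Genes at an unadjusted p under 0.05 numbered 339 without WT library 1 of the m5C RIP, 14 of the 15 higher and 8 of the 15 lower named genes among them, and 1194 without WT library 2 of the Dnmt1 RIP. In the m5C RIP, 10 of the 15 higher genes had a Het level within the range of the WT libraries, 3 above it and 2 below it. Of all 13589 genes tested, 5009 were within that range, 5149 above it and 3431 below it. That range includes WT library 1 of the assay, whose counts were at or above those of the homozygous library in every gene. Against WT library 2 alone, the Het level was above for 6 of the 15 and below for 9. Over all genes tested it was above for 7436 and below for 6129. Mrc2 was at 458 CPM in the Het m5C library and 386 CPM in WT library 2, and Pdgfrb at 197 and 199.7 CPM in the same libraries. The median of this difference over all genes was 0.20 with TMM factors, 0.12 with RLE factors and 0.00 with total counts alone. With 1 Het library and few residual degrees of freedom, the simulated data gave 14.5% of 16-fold differences back at this threshold.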

How the data were processed

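Each deposited table holds the authors' raw counts of reads for 31017 gene symbols, 1 table per library. The submitters' processing notes list Trim Galore 0.4.1, HISAT2 and featureCounts, with mm10 as the genome build; annotation, strand setting and other versions were not given in the sources used here. Libraries were made with NEBNext Ultra II after depletion of ribosomal RNA or selection of polyA RNA: per the labels both were in use, without a statement of which applies here. Of the gene symbols, 30416 matched GENCODE M21 once and gave coordinates, exon length and GC content.

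Groups came from the titles. The edgeR 4.0.16 fit (R 4.3.3) held the 6 Dnmt1 RIP libraries, with 2 homozygous ones that add to the estimate of spread, and genotype as the covariate. Genes were filtered with filterByExpr (by group, at least 10 counts and 15 in total) and scaled with TMM. Tests were glmQLFTest after glmQLFit, adjusted by Benjamini-Hochberg over 13589 genes, threshold 0.05. The common biological coefficient of variation was 0.424, with 3 residual degrees of freedom. The test of the difference between assays held 10 fibroblast RIP libraries. A standard error (SE) is the size of the fitted change over the root of its F statistic. Levels are CPM of all counts in genes, and a floor is 3 counts. The m5C level came from WT library 2 because the file of WT library 1 of that assay is at or above that of the homozygous library in every gene. Depth was 217173 to 814262 counts in the 4 libraries.

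The comparison, the gene lists and the naming rules were chosen with earlier results of these data known. Genes named were Dnmt1, the 15 smallest p per direction averaging 5 CPM or more with groups that do not overlap (leaving out placeholder names, matrix and immediate early genes), up to 4 smallest p per list, and the 10 highest levels. Outside these rules, genes that DESeq2 called were also named, as were C1qa, Lyz2, Htra1, Rnf6 and Bptf. On simulated data with 200 genes changed, the Het against WT fit on 13783 genes recovered 11.3%, 41.9% and 68.8% of 4-, 8- and 16-fold changes, with 4 false calls, and the assay fit on 15873 genes recovered 0%, 6.35% and 14.5%, with 0 false calls.

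Other settings were DESeq2-type (RLE) size factors, scaling by totals only, no filter, a mean of 5 CPM or more, DESeq2 1.42.0, the WT and Het libraries alone, a replicate block, each library left out and the 4 dominant genes removed. A block by the share of those genes (over 20%), a GC correction and leaving out each homozygous library were chosen after seeing the data. List medians in all settings were taken over members that passed the main filter. Tables and plots used Python 3.11.15, pandas 2.3.3, numpy 2.4.6 and matplotlib 3.10.9. Cortex libraries were not used here, and values of some genes that the naming rule took are not reported here.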

Additional observations from a re-analysis of the deposited data

How the results depend on the processing

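Calls depended on few settings. For Het against WT, DESeq2 called 26 genes (all higher) of the 1997 it gave an adjusted p, edgeR without a filter on low counts called 192 (179 higher and 13 lower, 160 of them at an unadjusted p under 0.05 with the filter), and leaving out a Het or WT library gave 0 to 38 calls, the 38 coming without Het library 2. Of those 38, 36 had an unadjusted p under 0.05 with all libraries, and the spread then came from the WT and homozygous pairs and the lone Het library was assumed to vary alike. The other settings called 0. Genes at an unadjusted p under 0.05 numbered 1669 without the filter, 465 with total counts alone and 659 to 1415 when a library was left out, 1415 without WT library 2. For the difference between assays, 12 genes were called without the filter (11 higher and 1 lower) and 0 to 6 when a library was left out, 6 without Het library 2.

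The replicate numbers did not pair the Het and WT libraries (correlation of deviations -0.00588). A replicate block called 0 genes, with 891 at an unadjusted p under 0.05 (663 higher and 228 lower). The common biological coefficient of variation was 0.401 with the block and 0.424 without it. With a library left out, the estimate of Cxcl2 ranged from -1.07 to 9.04 and that of Csf1r from -0.10 to 2.67 (both lowest without Het library 2), and that of Nfkb1 from -3.92 to 1.41 (highest without WT library 2); the cause was not tested. Of the list medians recomputed, 866 moved by less than the spread between the libraries of a genotype and 94 by more. That spread is the list's own and is wide where 1 library carries the list, so a median can change sign and count as unmoved. The sign was opposite in 8 of 16 settings for translation factors and in 7 for glycolysis genes. The WT libraries are the shallowest, so levels of a few CPM rest on single counts there.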
